A study of Mus musculus with 10 samples.

Results

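The genes described here are 38 genes of connective tissue, read in RNA from cultured mouse macrophages. They code for collagens and other proteins of the extracellular matrix, for the enzymes that mature and cleave them, and for secreted factors, receptors and surface proteins of fibroblasts and marrow stromal cells. They were found by symbol in the deposited table of 57010 genes, where all 38 were listed. A mean normalized read count (reads scaled to a common library depth) of at least 1 over the 10 libraries was reached by 37 of them. Lum, which codes for the collagen-binding proteoglycan lumican, lay just under that limit with a mean of 0.896, and Lepr (2.50) and Thy1 (3.53) were the lowest means above it. The genes were chosen with values of these libraries known. Thbs2, Ccn2, Fstl1, Cxcl12 and Pdgfrb were known as the largest rises between confined WKO and confined WT cells, and WKO confined replicate 5 was known to be high in stromal markers. Comparisons that use the WKO confined libraries are therefore described for all of the genes with no test, and confinement of WT cells is described with no test for those 5.

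The cells were bone marrow-derived macrophages, that is, marrow precursors turned into macrophages in culture. Marrow was taken from the femurs of wild-type mice (WT) or of mice lacking WASp (WKO, "WASp KO" in the labels), the protein of the gene Was, which activates branched actin assembly in blood cells. All groups were cultured for 7 days in RPMI with 20 ng/mL of recombinant mouse M-CSF, the macrophage growth factor. Confined cells were held for 1 h at a height of 3 µm under PDMS (silicone) micropillars, and unconfined cells carry the treatment label Control. There were 2 WT unconfined libraries (replicates 1 and 3), 2 WKO unconfined libraries (1 and 3), 3 WT confined libraries (2, 3 and 6) and 3 WKO confined libraries (1, 2 and 5). The mice's age and sex and the knockout allele are not given in the sources used here. The sources do not say whether replicates were separate animals or cultures, so p-values measure only the spread between these libraries, which may be technical.

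Connective tissue matrix is made mainly by mesenchymal cells. Fibrillar collagens form the tensile fibres, collagens IV and VI form networks beneath and around cells, and small proteoglycans, matricellular proteins and crosslinking enzymes set how fibres assemble. In bone marrow, stromal cells surround the blood-forming cells, make much of this matrix and secrete Cxcl12, which retains stem and progenitor cells. Macrophages themselves make some matrix proteins, among them fibronectin and thrombospondin 1. Marrow flushed from bone holds stromal cells as well as blood precursors. In bulk RNA such as this, fewer cells of a type and less RNA per cell cannot be told apart.

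Depth ranged from 13295701 to 19329908 reads per library, and 3 reads, used here as the detection floor, stood for a normalized read count between 2.35 and 3.59. Floors cover counting error only. The intervals given with fitted differences come from the standard errors of the fit, so like the p-values they measure the spread between these libraries. Was lay at 1308 or above in the 5 WT libraries and at 154 or below in the 5 WKO libraries, and the macrophage receptor gene Csf1r lay between 21303 and 37839 in all 10. All 12 macrophage markers had a mean of at least 10, and their sum ranged from 224882 to 369592. WKO confined replicate 5 stood apart: it held the highest value of 34 of the 37 genes, whereas 21.9% of the 12455 genes with a mean of at least 10 were highest there. The other 3 (Dcn, Mgp and Fap) were highest in WKO confined replicate 1. Counts and medians over the genes that compare the WKO confined group with another are given below with and without replicate 5.

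Most of the reads fell on 3 genes: Thbs1 (mean 13137), Igfbp4 (mean 3902) and Fn1 (mean 2598). All 38 genes together took from 0.0856% (WT unconfined replicate 1) to 0.349% (WKO confined replicate 5) of the normalized reads. Without these 3 genes, the other 35 summed to 2133 and 3758 in WT unconfined, 5582 and 6461 in WKO unconfined, 680.3, 604 and 1796 in WT confined, and 7112, 2349.8 and 20223 in WKO confined libraries. The 3 WT confined libraries were thus the lowest of the 10, and the WKO unconfined libraries lay above both WT unconfined ones. WKO confined libraries spread over most of the range of the unconfined ones and beyond it, with replicate 2 below both WKO unconfined libraries and replicate 5 above every other library. The ratio of replicate 5 to replicate 2 had a median of 6.40 over the 35 genes measured in both, from 1.14 (Igfbp4) to 36.2 (Mmp2), and all 35 were higher in replicate 5. Over all tested genes that ratio had a median of 1.01 and 51.5% were higher in replicate 5. A spread of the same kind, though smaller, lay within WT confined libraries, where replicate 6 exceeded replicate 3 for 24 of 30 genes (median ratio 2.51), and within WT unconfined libraries, where replicate 3 exceeded replicate 1 for 29 of 35 (median ratio 1.64).

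**Figure D1:**
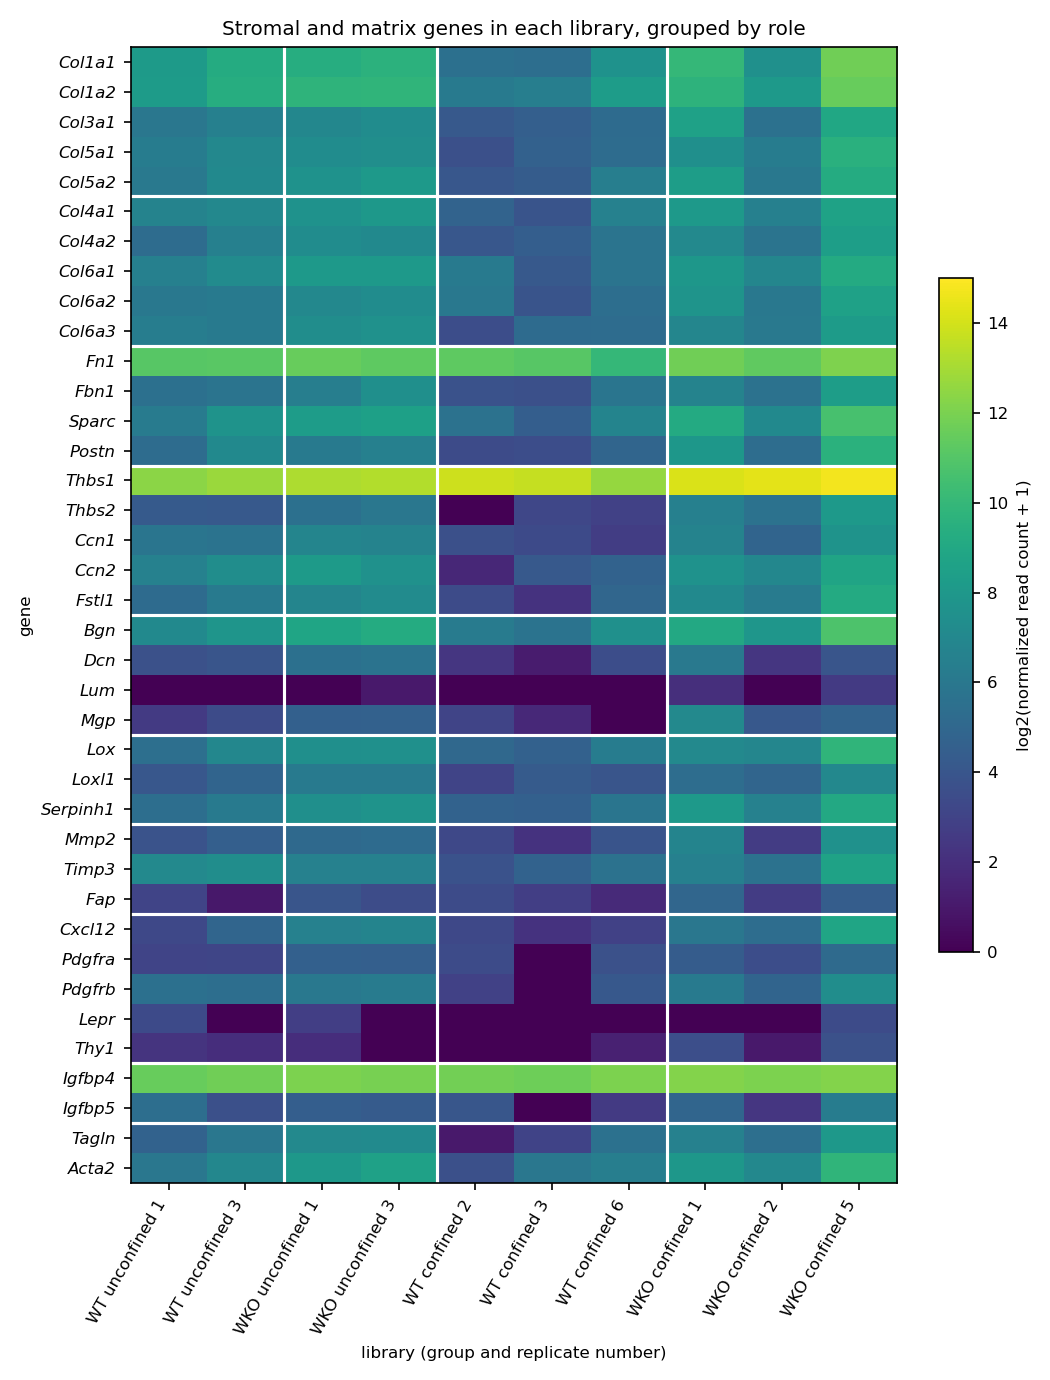
Heat map of log2(normalized read count + 1) for the 38 genes (rows, grouped by role with white lines) in the 10 libraries (columns, grouped by genotype and confinement). The 3 WT confined columns are the darkest for most genes and WKO confined replicate 5 is the brightest, while the rows of Thbs1, Igfbp4 and Fn1 are bright in every column.

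Promoter sequence was looked at as a description of the genes, and whether they share regulation was not tested. The RefSeq table for build GRCm38.p6 held 26 start sites for 23 of the 38 genes, and the 250 bases before each start were searched on both strands for 6 motifs. The motif of TEAD factors was read as GGAATG and that of AP-1 as TGANTCA, where N is any base. The TATA box was read as TATAAA, the NF-Y site as CCAAT and the GC box as GGGCGG. The CArG box of serum response factor was read as CC, then 6 bases of A or T, then GG. There are 4 windows shown, for a matricellular gene, the stromal chemokine, a gene induced through YAP and TEAD, and a fibrillar collagen, with matches to any of the motifs in capitals. They read 5′ to 3′ on the gene's own strand and end at the base before the start site.
Thbs2: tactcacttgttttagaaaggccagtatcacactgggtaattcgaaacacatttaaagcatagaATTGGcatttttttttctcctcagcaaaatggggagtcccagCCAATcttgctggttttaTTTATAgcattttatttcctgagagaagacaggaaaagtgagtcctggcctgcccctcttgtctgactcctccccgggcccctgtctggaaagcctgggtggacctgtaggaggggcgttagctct
Cxcl12: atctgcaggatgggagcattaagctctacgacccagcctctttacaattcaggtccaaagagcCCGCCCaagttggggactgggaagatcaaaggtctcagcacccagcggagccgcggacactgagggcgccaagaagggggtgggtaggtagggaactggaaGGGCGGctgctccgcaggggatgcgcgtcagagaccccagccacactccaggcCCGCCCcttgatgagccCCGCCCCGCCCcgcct
Ccn1: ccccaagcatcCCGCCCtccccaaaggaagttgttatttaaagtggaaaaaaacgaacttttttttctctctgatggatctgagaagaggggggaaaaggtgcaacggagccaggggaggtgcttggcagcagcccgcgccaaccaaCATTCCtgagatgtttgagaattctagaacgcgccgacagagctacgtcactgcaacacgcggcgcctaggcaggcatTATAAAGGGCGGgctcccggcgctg
Col3a1: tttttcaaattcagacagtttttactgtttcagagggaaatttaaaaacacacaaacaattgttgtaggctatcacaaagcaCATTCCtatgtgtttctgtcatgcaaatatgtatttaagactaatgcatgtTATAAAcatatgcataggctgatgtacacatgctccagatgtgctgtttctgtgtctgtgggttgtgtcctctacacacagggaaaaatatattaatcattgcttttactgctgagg
The windows lie at chr17:14694263-14694512 (minus strand) for Thbs2, chr6:117168285-117168534 (plus) for Cxcl12, chr3:145649986-145650235 (minus) for Ccn1 and chr1:45311288-45311537 (plus) for Col3a1, upstream of each gene. Counted back from the start site, Ccn1 held CATTCC, the reverse complement of GGAATG, from base -103, a TATAAA from -25 and a GC box directly after it. The Col3a1 window held CATTCC from -168 and TATAAA from -117, and the Cxcl12 window held 5 GC boxes, of which a pair shares 1 base, and none of the other motifs. The Thbs2 window held CCAAT on each strand and a reversed TATA box from -126.

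No single motif was shared by most of the windows. GGAATG was in 5 of the 26 windows (Col3a1, Igfbp5, Ccn1, Col6a2 and Acta2) and in 12.6% of the 32851 RefSeq windows of the same length. GGGCGG was in 13 of 26 against 32.7%, CCAAT in 5 of 26 against 33.8%, and TATAAA in 5 of 26 against 12.4%. TGANTCA was in 1 window (Col6a1) against 6.75%, and the CArG box in 0 of 26 against 1.47%. These are exact matches of letters within this window only, and no binding was measured. Sites that differ by 1 base were not counted, such as CCCTATATGG in the Acta2 window, which is 1 base off the CArG box.

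Among the fibrillar collagens, Col1a1 and Col1a2 code for the chains of collagen I, the main protein of bone and tendon, and per kilobase of exon Col1a1 was the higher in most libraries (ratio of per-kilobase levels 0.933 to 2.41, median 1.55). Col1a1 (ENSMUSG00000001506, chr11:94936224-94953042, GRCm38) had normalized read counts of 285 and 602 in WT unconfined, 640.3 and 785 in WKO unconfined, 45, 41.1 and 202 in WT confined and 1036, 180.0 and 3402 in WKO confined libraries. Every WT confined value lay below every unconfined value, and the WKO confined values ran from inside the WT confined range (replicate 2) to far above all others (replicate 5). Col1a2 (ENSMUSG00000029661, chr6:4504814-4541544) had 294 and 659, then 849 and 884, then 72.8, 83.3 and 312, and 814, 273 and 2922 in the same order of groups. Here 1 WT confined library, replicate 6, reached into the WT unconfined range, and WKO confined replicate 2 lay below it. Col3a1, Col5a1 and Col5a2, whose chains join collagen I in mixed fibres, ranged from 11.8 (Col5a1, WT confined replicate 2) to 742 (Col5a1, WKO confined replicate 5), and for each of them WKO unconfined exceeded WT unconfined libraries without overlap. Per kilobase, Col3a1 was at 0.0961 to 0.363 of Col1a1.

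Collagen IV builds basement membranes, and collagen VI forms beaded filaments around cells. Col4a1 (ENSMUSG00000031502, chr8:11198423-11312826) and Col4a2 start head to head and share 22 exon bases on opposite strands. Col4a1 had 103 and 125 in WT unconfined, 199 and 256 in WKO unconfined, 26.8, 14.1 and 94 in WT confined and 278, 92.6 and 405 in WKO confined libraries. The WKO confined values straddled the WKO unconfined ones, and their lowest lay just under the highest WT confined value. Col6a1 (ENSMUSG00000001119, chr10:76708792-76726168) had 91.2 and 149, then 260.5 and 276, then 68.6, 17.6 and 53, and 241, 119 and 579.9. For Col6a1 the WT confined values lay below all others, with no overlap between WT and WKO in either condition. The ratio of Col6a1 to Col6a2 per kilobase stayed between 2.06 and 3.88 in all libraries, while that of Col6a3 to Col6a1 ran from 0.0572 to 0.757.

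Fn1 codes for fibronectin, the matrix glycoprotein to which integrins bind and one that macrophages make in quantity. Fn1 (ENSMUSG00000026193, chr1:71585520-71653200) had 2233 and 2296 in WT unconfined, 2919 and 2513 in WKO unconfined, 2437, 2170.3 and 1002 in WT confined and 3478, 2622 and 4308 in WKO confined libraries. In confined WT cells replicates 2 and 3 lay close to the unconfined values and replicate 6 far under them. Sparc, a collagen-binding glycoprotein of bone and connective tissue (ENSMUSG00000018593, chr11:55394500-55423183), had 73.1 and 209, then 309.8 and 364, then 49.3, 21.1 and 108, and 571, 136 and 1558. Its WT confined and WT unconfined values overlapped, and WKO exceeded WT without overlap in both conditions. Fbn1 (fibrillin 1, the microfibril protein) and Postn (periostin, which links collagen to cells) lay between 9.64 (Postn) and 756 (Postn), and Postn was among the 4 genes whose WT and WKO unconfined values overlapped.

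Matricellular proteins act on cells from the matrix without bearing load. Thbs1, thrombospondin 1, an inhibitor of blood vessel growth and an activator of latent TGF-beta, was the most abundant of the 38 genes per kilobase as well as in reads. Thbs1 (ENSMUSG00000040152, chr2:118111876-118127133) had 5355 and 6756 in WT unconfined, 9208 and 9932 in WKO unconfined, 14591, 13118 and 6285 in WT confined and 17819.7, 21165 and 27138 in WKO confined libraries. Confined values were above both unconfined values of their genotype in 3 of 3 WKO libraries and in 2 of 3 WT libraries. Its relative Thbs2, thrombospondin 2 (ENSMUSG00000023885, chr17:14665500-14694235), had 18 and 17.3, then 46.4 and 60.9, then 0, 8.21 and 6.43, and 91.8, 48.4 and 262. The WT confined Thbs2 values rest on 0, 7 and 8 reads, and no 2 groups other than the WKO unconfined and WKO confined ones overlapped. Per kilobase Thbs1 was 119 to 1842 times as high as Thbs2 in the 9 libraries with Thbs2 reads.

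Ccn1 and Ccn2 code for cysteine-rich secreted proteins (CYR61 and CTGF) that are well-known targets of YAP and of TGF-beta. Ccn2 (ENSMUSG00000019997, chr10:24595442-24598683) had 95.9 and 159 in WT unconfined, 285 and 189 in WKO unconfined, 2.14, 17.6 and 25.7 in WT confined and 196, 120.0 and 433 in WKO confined libraries. Ccn1 had 56 and 51.8, then 113 and 103, then 11.8, 9.38 and 5.62, and 104, 27.4 and 211. Both genes were low in all 3 WT confined libraries, beneath every other library. Gm15270, on the opposite strand, covers 23.2% of the exon bases of Ccn2 and had a mean of 0.103; the use of strand in counting is not given in the sources used here, so Ccn2 is uncertain to that extent. Fstl1, follistatin-like 1, a secreted glycoprotein of mesenchymal cells (ENSMUSG00000022816, chr16:37776873-37836514), had 37 and 70.1, then 110.5 and 152, then 9.64, 3.52 and 30.5, and 137, 74.7 and 566. Of its WKO confined values, replicate 2 lay below the WKO unconfined pair, replicate 1 between them and replicate 5 above.

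**Figure D2:**
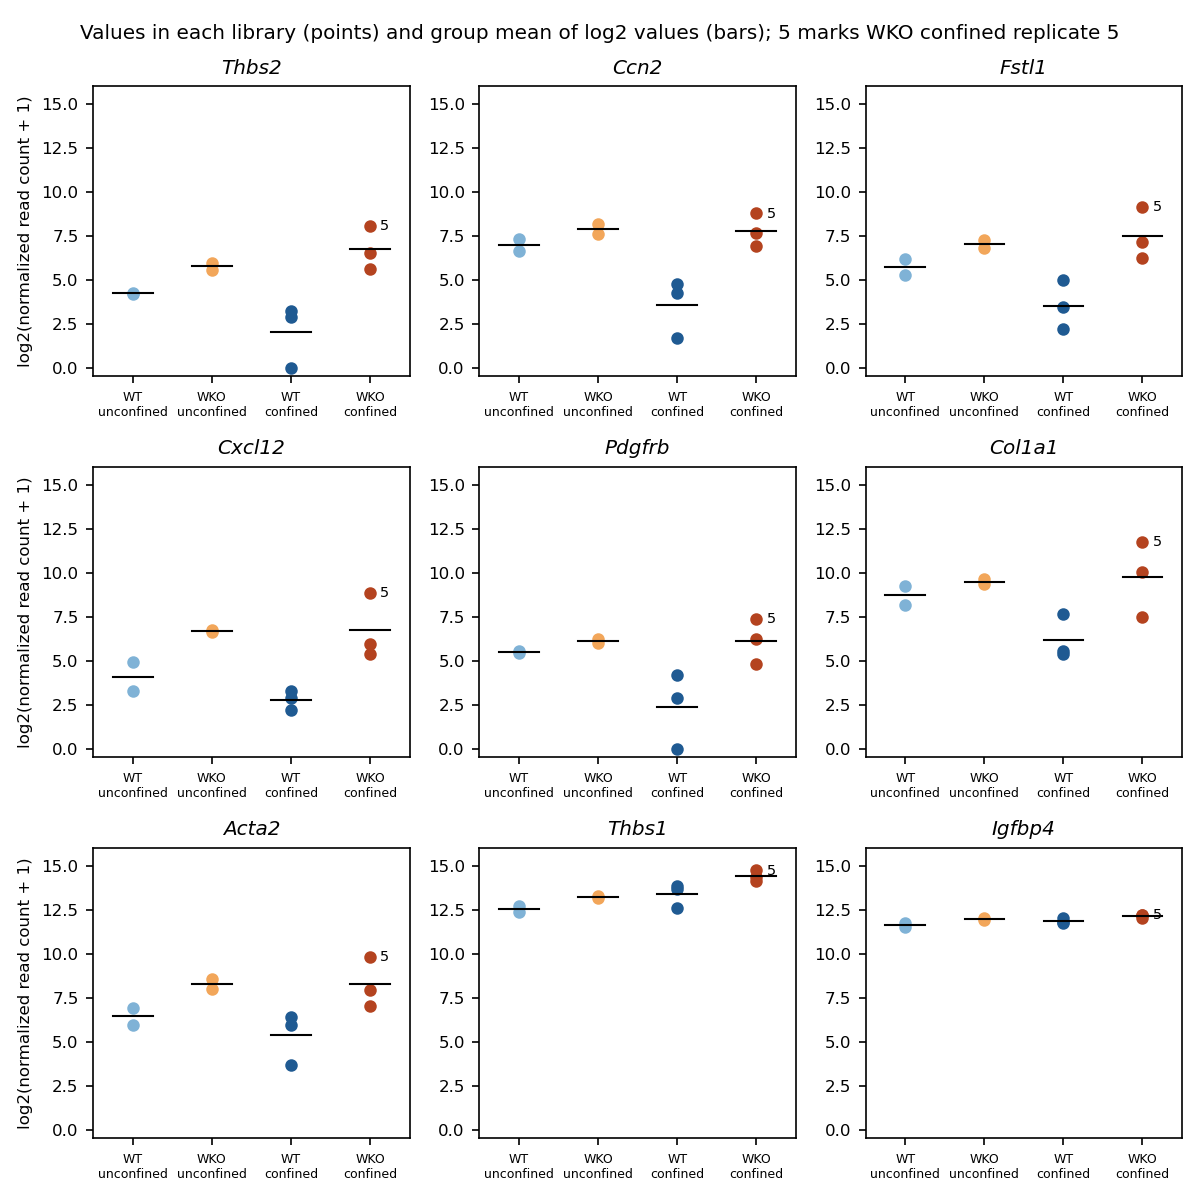
Log2(normalized read count + 1) of 9 genes in each library (points) with the mean of the log2 values of each group (bars); the number 5 marks WKO confined replicate 5. Thbs2, Ccn2, Fstl1, Cxcl12, Pdgfrb, Col1a1 and Acta2 have their lowest group mean in WT confined libraries and their highest value in replicate 5, while Thbs1 is higher in WKO confined libraries than in any other and Igfbp4 varies little.

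Small proteoglycans bind collagen fibrils and growth factors. Bgn, biglycan (ENSMUSG00000031375, chrX:73483602-73495933), had 136 and 229 in WT unconfined, 449 and 599 in WKO unconfined, 76.1, 50.4 and 184 in WT confined and 538, 238 and 1829.6 in WKO confined libraries. WKO exceeded WT without overlap in both conditions, and the WT confined and WT unconfined values overlapped through WT confined replicate 6. Mgp, matrix Gla protein, an inhibitor of calcification (ENSMUSG00000030218, chr6:136872435-136875823), had 4.75 and 9.6, then 23.7 and 23.7, then 7.5, 2.35 and 0, and 130.2, 16.8 and 26.4. Mgp and Dcn (decorin) were among the 3 genes with their maximum in WKO confined replicate 1 rather than 5, and Dcn was at 14.4 in replicate 5 and 66.7 in replicate 1. Lum had 9 reads in all, 1 in a WKO unconfined library and 4 in each of WKO confined replicates 1 and 5.

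Lox and Loxl1 oxidise lysines so that collagen and elastin crosslink, and Serpinh1 codes for HSP47, the collagen chaperone of the endoplasmic reticulum. Lox (ENSMUSG00000024529) had 43.7 and 122 in WT unconfined, 176 and 182 in WKO unconfined, 32.1, 24.6 and 77.1 in WT confined and 134, 118 and 894 in WKO confined libraries. WKO confined replicates 1 and 2 lay below both WKO unconfined libraries for Lox, and only replicate 5 lay above. Serpinh1 (ENSMUSG00000070436, chr7:99345376-99353239) had 41.8 and 72, then 177 and 209.6, then 25.7, 23.5 and 57, and 275, 96.9 and 534. Every WKO library exceeded every WT library for Serpinh1, in both conditions.

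Mmp2 codes for gelatinase A, Timp3 for a matrix-bound inhibitor of metalloproteases and Fap for a surface protease of activated fibroblasts. Mmp2 (ENSMUSG00000031740, chr8:92827291-92853420) had 13.3 and 22.1 in WT unconfined, 34.5 and 37.2 in WKO unconfined, 8.57, 3.52 and 13.7 in WT confined and 109.8, 5.26 and 191 in WKO confined libraries, the last being the widest spread of any gene here between replicates 2 and 5. Timp3 (ENSMUSG00000020044, chr10:86300372-86349506) had 130.1 and 162, then 96.7 and 95, then 12.9, 25.8 and 49.8, and 90.2, 49.5 and 401. It was the only gene of the 37 whose WKO unconfined values both lay below the WT unconfined ones. Syn3, a gene on the other strand, covers 21.3% of its exon bases and was at 0 in all libraries. Fap, with a mean of 10.7, was the lowest gene to enter the tests, and its values lay between 0.960 and 29.8 with groups that overlapped in confined cells. Its mean reached the limit of 10 through WKO confined replicates 1 and 5 (29.8 and 20.4), and outside that group it was at 14.8 at most.

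Cxcl12 is the chemokine of marrow stromal cells, read by the receptor Cxcr4, and Pdgfra and Pdgfrb code for the platelet-derived growth factor receptors of mesenchymal cells and pericytes. Cxcl12 (ENSMUSG00000061353, chr6:117168535-117181367) had 8.55 and 28.8 in WT unconfined, 96.7 and 107 in WKO unconfined, 8.57, 3.52 and 6.43 in WT confined and 61.2, 40.0 and 452 in WKO confined libraries. WKO exceeded WT without overlap in both conditions, and WKO confined replicates 1 and 2 lay below both WKO unconfined libraries. Pdgfrb (ENSMUSG00000024620) had 45.6 and 42.2, then 64.1 and 73.3, then 6.43, 0 and 16.9, and 73, 27.4 and 162. All WT confined Pdgfrb values lay below all others, that of replicate 3 at 0 reads, where up to 3.52 is allowed by the floor. Pdgfra ranged from 0 to 35.9. Lepr, the leptin receptor of marrow stromal cells, was at 0 in 7 of 10 libraries and reached 9.59 at most, and Thy1, a surface protein of fibroblasts and T cells, reached 12.0 at most.

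The IGF-binding proteins carry insulin-like growth factors. Igfbp4 (ENSMUSG00000017493, chr11:99041244-99054392) was the steadiest of the 38, with 2907 and 3384 in WT unconfined, 4141 and 3867 in WKO unconfined, 3610.3, 3349 and 4232 in WT confined and 4669, 4142 and 4717 in WKO confined libraries. Both WKO unconfined values lay above both WT unconfined ones, and all 3 WKO confined values above both WKO unconfined ones, by margins that were small beside the level. Igfbp5, a bone and stromal member of the family (ENSMUSG00000026185, chr1:72857932-72874884), had 41.8 and 11.5, then 21.7 and 18.6, then 15, 0 and 4.82, and 29, 4.21 and 77.9, with overlap between the genotypes in both conditions.

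Acta2 and Tagln code for smooth muscle actin and SM22, markers of smooth muscle and of activated fibroblasts. Acta2 (ENSMUSG00000035783, chr19:34241090-34255590) had 59.8 and 121 in WT unconfined, 257 and 377 in WKO unconfined, 11.8, 61 and 84.4 in WT confined and 246, 128 and 895 in WKO confined libraries. WKO exceeded WT without overlap in both conditions. Tagln (ENSMUSG00000032085, chr9:45929619-45936058) had 25.6 and 59.5, then 134 and 141, then 1.07, 7.04 and 46.6, and 94.1, 44.2 and 256. Gm48529, on the other strand, covers 62.4% of the exon bases of Tagln and had a mean of 55.8 against 81.0 for Tagln, so reads of the pair may not be separable and Tagln is uncertain.

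Loss of WASp in unconfined cells was compared in the 4 unconfined libraries. This contrast is not the one for which the 5 rises were known, but values of these libraries were also known when the genes were listed, and they enter the mean that the limits of 1 and 10 are set on. Nearly all of the genes were higher in WKO cells by value, but none passed the test across all genes. Both WKO values lay above both WT values for 32 of 37 genes and both lay below for 1 (Timp3), where 22.2% of the 12455 tested genes were higher and 22.7% lower in this way. The 4 genes that overlapped were Postn, Lepr, Thy1 and Igfbp5. Of the 37 genes, 35 had a mean of at least 10 and entered the test, and 0 of the 35 passed at a limma adjusted p under 0.05, where 0.145% of all tested genes passed (0.0482% higher and 0.0963% lower). At an unadjusted limma p under 0.05 there were 4 (Cxcl12, Serpinh1, Loxl1 and Igfbp4), where 1196 of all 12455 tested genes were. With edgeR and DESeq2 on the recovered reads 0 were called as well (0.12% and 1.44% of all tested genes). A fit of the 4 unconfined libraries alone called 4 (Thbs1, Bgn, Serpinh1 and Acta2, all higher), where 1.52% of all tested genes were called. In that fit 30 of the 35 had an unadjusted limma p under 0.05, where 1747 of all 12455 tested genes did.

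The fitted differences between unconfined genotypes were large for many genes, with wide errors. These errors rest on 1 estimate of spread per gene from all 10 libraries, so the confined libraries enter them too. The median log2 difference of the 35 was 1.22, against 0.00219 for all tested genes, with 33 above 0 and 2 below (Timp3 and Igfbp5). Cxcl12 had the highest value (log2 difference 2.61, 95% interval 0.55 to 4.66, SE 0.941, limma adjusted p 0.381, higher in 2 of 2 WKO libraries). The collagen chaperone Serpinh1 was at 1.79 (0.38 to 3.20, limma adjusted p 0.381), Acta2 at 1.86 (-0.10 to 3.81, adjusted p 0.557) and Bgn at 1.55 (-0.11 to 3.21, adjusted p 0.57). By role, the medians were 0.88 for fibrillar collagens, 1.19 for collagens IV and VI, 1.73 for the collagen maturation genes and 1.82 for the contractile pair. Small values were fitted for the 3 abundant genes: Fn1 was at 0.26, Igfbp4 at 0.35 and Thbs1 at 0.67. An adjusted p above the threshold does not show that the genotypes were alike, and most intervals reached from below 0 to beyond 2.

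Markers of other cells differed between the same libraries. Of 22 marrow stromal markers outside the 38 genes, 21 had reads (Tcf21 was at 0) and 8 had a mean of at least 10. Their whole sum was 1706 to 2126 in WT and 2705 to 3336 in WKO unconfined libraries, most of it from Vcam1, Kitl and Runx2, of which Kitl overlapped between the genotypes. The 18 with reads and a mean under 100 summed to 51.3 and 95 in WT and to 174 and 204 in WKO. The 12 markers of neutrophils and their progenitors summed to 6997 to 10942 in WT and 25142 to 30257 in WKO, and the 9 measured B-lineage markers to 1049 to 1065 and 5212 to 5483 (Igll1 at 0). Endothelial markers (12 of 12 with reads) summed to 1828 to 1938 in WT and 1868 in both WKO libraries, and 3 of 8 adipocyte markers (Cfd, Cidec and Lep) were at 0. Over all 10 libraries the 8 T and NK markers summed to 2.14 to 22.1, the 7 measured erythroid markers to 0 to 85.2 and the 7 megakaryocyte and platelet markers to 3721 to 8108. The adipocyte list summed to 96542 to 147128, nearly all of it from Lpl, Fabp4 and Pparg, which macrophages express. The part of such cells in the differences of the 37 genes was not tested.

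**Figure D3:**
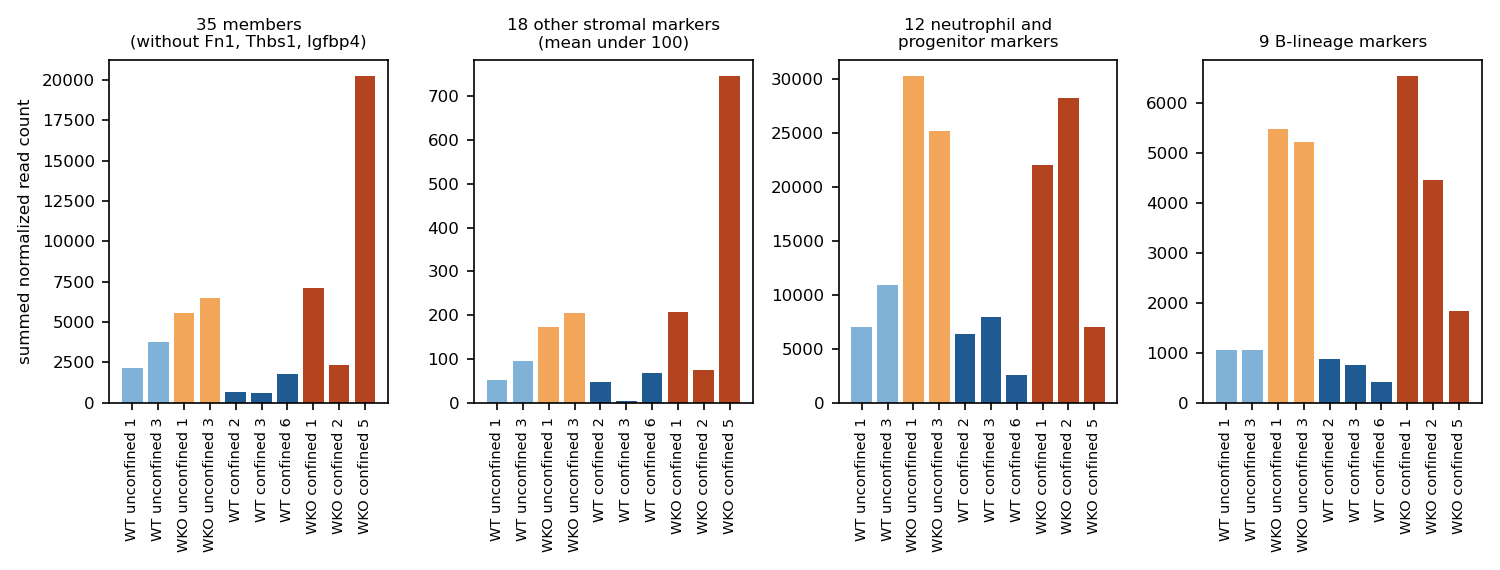
Summed normalized read counts in each library (bars, linear axes from 0, colours by group) of the 35 genes other than Fn1, Thbs1 and Igfbp4, of 18 other stromal markers, of 12 neutrophil and progenitor markers and of 9 B-lineage markers. The first 2 panels share their maximum in WKO confined replicate 5 (20223 and 745). The neutrophil and B-lineage sums there (7031 and 1834) are lower than in the other 4 WKO libraries. That neutrophil sum lies within the WT range, and that B-lineage sum is above every WT library.

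Confinement of WT cells was compared in 2 unconfined and 3 confined libraries. The unconfined ones are those of the comparison above, and the confined ones took part in the contrast for which Thbs2, Ccn2, Fstl1, Cxcl12 and Pdgfrb were picked, so those 5 are described only. Most genes were lower in confined WT cells by value, and none of the other 30 with a mean of at least 10 passed the test. All confined values lay below all unconfined ones for 15 of 37 genes and above for 0, where 17.7% of the tested genes were lower and 18.3% higher in this way. These 15 were Col1a1, Col3a1, Col5a1, Col4a1, Col6a1, Col6a3, Postn, Thbs2, Ccn1, Ccn2, Fstl1, Dcn, Timp3, Pdgfrb and Thy1, and without the 5 picked genes the count was 11 of 32. Of the 30 tested genes 0 had a limma adjusted p under 0.05, where 1.16% of all tested genes passed (0.891% higher and 0.265% lower). At an unadjusted limma p under 0.05 there were 10 of the 30, where 1523 of all 12455 tested genes were. With edgeR 0 were called (0.931% of all tested genes). DESeq2 called 2 (Thbs1 higher and Ccn1 lower), where it called 2.67% of all tested genes, and a fit of the WT libraries alone called 2 (Ccn1 and Timp3, lower), where 3.65% were called.

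The median log2 difference of the 30 was -1.34, against -0.00659 for all tested genes, with 27 below 0 and 3 above (Thbs1, Igfbp4 and Fap). Ccn1 was at -2.52 (95% interval -3.95 to -1.09, SE 0.653, limma adjusted p 0.113, lower in 3 of 3 confined libraries), Timp3 at -2.46 (adjusted p 0.162) and Col1a1 at -2.50 (0.312). Without WKO confined replicate 5, which enters only through the shared estimate of spread, Ccn1, Timp3 and Col5a1 passed, as did 3.19% of all tested genes. Thbs1 had a value in the opposite direction, 0.82 (0.18 to 1.47, SE 0.296, limma adjusted p 0.268). Without WT confined replicate 6, Thbs1 was at 1.20 and passed (adjusted p 0.0218, with 0.53% of all tested genes passing), and Fn1 moved from -0.38 to 0.02. Of the 5 picked genes, Ccn2 was at -3.43, Pdgfrb at -3.14, Thbs2 at -2.19, Fstl1 at -2.18 and Cxcl12 at -1.30, which describes libraries that the choice used.

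Of the 10 roles, the collagen maturation genes had the median closest to 0 (-0.73), and fibrillar collagens had a median of -1.82. Matricellular genes had a median of -2.19, but this role holds the picked genes Thbs2, Ccn2 and Fstl1. That median therefore describes libraries that the choice used. In the same libraries the 18 low stromal markers summed to 51.3 and 95 unconfined and to 47.1, 4.69 and 69.1 confined. Neutrophil and progenitor markers summed to 6997 to 10942 unconfined and 2570 to 7989 confined, and B-lineage markers to 1049 to 1065 and 423 to 868. The stromal adhesion gene Vcam1, which macrophages also express, fell (log2 difference -0.92, limma adjusted p 0.0417), as did the B-cell gene Cd79b (-1.76, adjusted p 0.0381). What these cells contribute to the values of the 37 genes was not tested.

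The direction in which confinement of WKO cells moved the genes depended on the fit and on the replicates kept. All confined values lay above both unconfined ones for 2 of 37 genes, Thbs1 and Igfbp4, and below for 0, where 14.5% and 13.8% of tested genes did so. For Igfbp4 this rests on 4141.6 in confined replicate 2, where 1 read stands for 1.05, against 4140.6 in unconfined replicate 1. The median log2 difference of the 35 was 0.17 with 21 above 0, and without replicate 5 it was -0.53 with 7 above 0. Without replicate 2 instead, it was 0.89 with 33 above 0. With all libraries, edgeR and DESeq2 each put 30 of the 35 above 0 (medians 0.61 and 0.62). Of all tested genes 49.5% and 50.5% were above 0 in those 2 fits. With replicate 5 left out, 11 of the 37 genes had both confined values below both unconfined ones and 2 (Thbs1 and Igfbp4) had both above, where 19.1% and 19.5% of tested genes did so. The WKO confined mean exceeded the WKO unconfined mean for 32 genes with replicate 5 and for 11 without it, so that this count rests on 1 library. For Cxcl12 the log2 difference was 0.03 with replicate 5 and -1.03 without it, for Tagln -0.42 and -1.08, for Thbs2 0.98 and 0.32, and for Thbs1 1.18 and 1.02.

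Between confined WKO and confined WT cells the differences were the largest, and part of the genes had been picked for them. All WKO values lay above all WT values for 21 of 37 genes and below for 0, where 10.7% and 10.4% of tested genes did so. Without replicate 5 the counts were 21 and 0, where 16.2% and 15.4% of tested genes did so. The 21 could hardly change, since replicate 5 lay above replicate 2 for all 35 genes measured in both. These counts describe the contrast that the choice used. The WKO mean was above the WT mean for 37 of 37 genes, and for 36 (not Lepr) without replicate 5. The median log2 difference of the 35 was 2.78 and ran from 0.28 (Igfbp4) to 4.70 (Thbs2), and without replicate 5 the median was 2.05. Ccn2 was at 4.23 and at 3.74 without that library, Fstl1 at 3.98 and 3.16, Cxcl12 at 3.94 and 2.88, Pdgfrb at 3.78 and 3.17, and Col1a1 at 3.55 and 2.56. The 18 low stromal markers summed to 47.1, 4.69 and 69.1 in WT and to 206, 74.7 and 745 in WKO confined libraries. Ibsp and Alpl, genes of bone-forming cells, were at 236 and 113 in WKO confined replicate 5 and at no more than 4.75 and 16.1 in any other library. Replicate 5 was the highest library for 12 of the 21 stromal markers with reads, and the part of stromal cells was not tested.

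**Figure D4:**
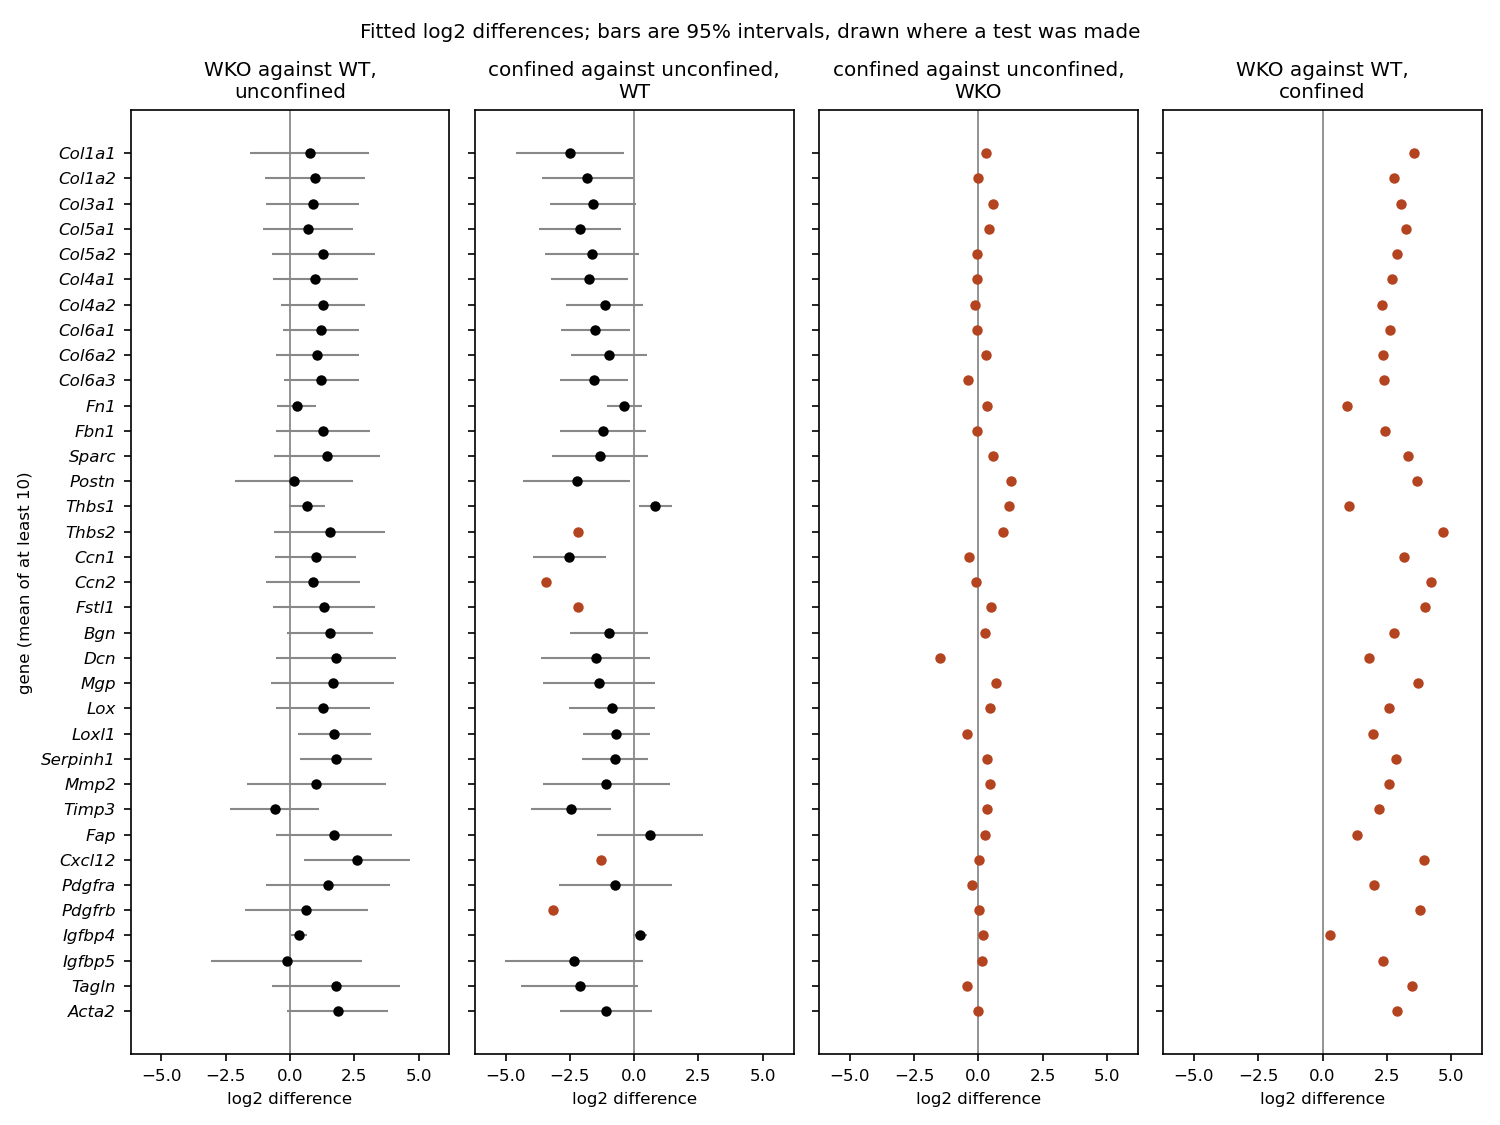
Fitted log2 differences (points, on the log2(normalized read count + 1) scale) of the 35 genes with a mean of at least 10 in 4 comparisons, in black with 95% intervals where a test was made and in red where the value is a description. Points lie right of 0 for 33 genes between unconfined genotypes, left of 0 for 32 genes in WT confinement, on both sides of 0 in WKO confinement and right of 0 for all 35 between confined genotypes.

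The comparisons share libraries, so the order of the group means is given as a description. The WT confined mean was the lowest of the 4 group means for 34 of 37 genes, the exceptions being Thbs1, Fap and Igfbp4, and for 34 without replicate 5, where 27.2% and 28.2% of all tested genes had it lowest. The full order, from WT confined through WT unconfined and WKO unconfined to WKO confined, held for 24 with replicate 5 and for 6 without it, where 5.19% and 5.07% of all tested genes had it. Neighbours in that order often overlapped by library. WT confined and WT unconfined values overlapped for 22 of the 37 genes (64.1% of all tested genes), and the unconfined genotypes for 4 (55.1%). WKO unconfined and WKO confined values overlapped for 35 (71.7%), and for 24 (61.4%) without replicate 5. The interaction, how much more confinement moved a gene in WKO than in WT cells, holds the contrast that the choice used. By value it was above 0 for 32 of the 35 with or without replicate 5 (median 1.55, and 0.85 without it). Of all tested genes 51.1% were above 0, and 50.2% without replicate 5. For the interaction limma passed 0% of all tested genes, with 258 at an unadjusted p under 0.05. With edgeR and DESeq2 0 passed as well.

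Other genes of the same pathways were read from lists of related function. Of 24 genes that modify and process collagen (prolyl and lysyl hydroxylases, chaperones and propeptide proteases), 20 were tested and 0 passed in either tested contrast, with medians of 0.04 between unconfined genotypes and 0.02 in WT confinement. Of 36 other matrix genes, 24 were tested and 0 passed, with medians of 0.29 and -0.60, and Aspn, Col8a2, Eln (elastin) and Mfap4 were at 0 in all libraries, which allows up to 3 reads in each. These medians stand beside 1.22 between unconfined genotypes for the 35 genes, and -1.34 in WT confinement for the 30 left without the picked genes. With the picked genes the latter was -1.50, which describes libraries that the choice used.

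Among 18 contractile and serum response factor target genes, 13 were tested. Vcl, vinculin, which links integrins to actin, fell in WKO unconfined cells (log2 difference -0.94, limma adjusted p 0.0346), from 2366 and 2465 to 1226 and 1296, and 0 of the 13 passed in WT confinement. Of 26 genes of the YAP-TEAD and TGF-beta pathways 22 were tested. Axl, a receptor tyrosine kinase and a known YAP target, fell in confined WT cells (log2 difference -1.15, limma adjusted p 0.00597), from 1136 and 1655 to 637, 581 and 631, and none of the 22 passed between unconfined genotypes.

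Of 23 partners of the ligands and receptors, 19 were tested. Cxcr4, the receptor for Cxcl12, rose in confined WT cells (log2 difference 1.91, limma adjusted p 0.0235), from 669 and 1108 to 3149, 3774 and 2847, and none of the 19 passed between unconfined genotypes. In the same confined WT libraries Cxcl12 itself lay between 3.52 and 8.57, near the floor, and in the unconfined ones at 8.55 and 28.8. In WKO libraries Cxcr4 lay at 1036 and 2643 unconfined and at 3337, 4136 and 5823 confined, overlapping the WT values in both conditions, while Cxcl12 lay at 40.0 or above in all 5.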

How the data were processed

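RNA sequencing was carried out on 10 libraries, made from 5 ng of total RNA each with an mRNA kit, per the labels' protocols. The signal the authors deposited is a normalized read count for each of 57010 Ensembl identifiers in each library. FastQC, Trim Galore, STAR and the build GRCm38 (mm10) are named in the submitters' processing notes; versions, counting tool and strand use are not given in the sources used here. In these deposited values 100% were whole multiples of 1 read (largest distance from a whole number 1.28e-09), so reads were recovered by division. Such scaling removes depth differences but not differences in cell composition. Of the identifiers, 4981 are not in GENCODE M21, which supplied coordinates and exon lengths, so another release lay behind the counts.

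The 38 genes and the pathway and marker lists were chosen with earlier results of these data known. The 12455 genes with a mean of at least 10 entered limma 3.58.1 (R 4.3.3) as log2(normalized read count + 1), with 1 mean per group, all 10 libraries (6 residual degrees of freedom), a mean-variance trend and Benjamini-Hochberg adjustment over all tested genes, threshold 0.05. In WT confinement the 5 known rises were left out of the count of tested genes, because the choice used those libraries; this was decided after the data were seen. Differences on this scale understate the change of low genes. The script was tested on simulated data. Alternatives were edgeR 4.0.16 and DESeq2 1.42.0 on the recovered reads, TMM and upper-quartile scaling, pseudocounts of 0.5 and 5, other filters, fits of the compared groups alone, the replicate number as a block and leaving out each library. Values per library are given for 22 genes by rule: the 5 known rises and the 2 genes of each of the 10 roles with the highest mean (genes passing a tested contrast would have been added, but none did). Ccn1 and the genes named from the marker lists (Vcam1, Cd79b, Ibsp, Alpl and Kitl) were added after their values were seen. From the pathway lists, genes that passed were named. Replicates differed by more than sampling noise (chi-square per degree of freedom 7.56 to 78.3) and were counted separately. Similar genes were searched with blastn 2.17.0: 3 of 38 (Fbn1, Timp3 and Tagln) had 20% or more of their longest transcript covered at 95% identity in stretches of at least 100 bases and are uncertain. Promoters came from RefSeq (GRCm38.p6), in which 15 of the 38 genes had no window.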

Additional observations from a re-analysis of the deposited data

How the results depend on the processing

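Of the 35 tested genes, 0 passed between unconfined genotypes with edgeR, DESeq2, TMM or upper-quartile scaling, either pseudocount, either other filter and with any 1 library left out (0 to 0). With only the groups compared 4 passed (1.52% of all tested genes). In WT confinement, where the 5 genes picked for their rise over the same WT libraries were left out of the count, 0 of 30 passed with edgeR, either scaling, either pseudocount or either other filter, while 2 passed with DESeq2, 2 with only the groups compared and 0 to 3 with 1 library left out. In the main fit the replicate numbers were not used to pair the samples. The deviations of same-numbered libraries from their group means correlated at -0.110 to 0.0764 over 7 pairs and those of others at -0.201 to 0.241 over 30. In groups of 2 libraries the deviations are mirror images, so the pairs are not independent. These correlations cannot show whether same-numbered libraries belong together. A replicate block, with 2 residual degrees of freedom, called 5 of the 35 genes between unconfined genotypes (Thbs1, Bgn, Serpinh1, Cxcl12 and Acta2) where 1.97% of all tested genes were called, and 7 of 30 in WT confinement (1 higher, 6 lower), where 1.73% were. Leaving out an unconfined library leaves 1 in its group, which is then assumed to vary like the other groups.

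Counts of all genes passing moved more. The 18 between unconfined genotypes became 179 with DESeq2, 10 with no low-value filter, 245 with the replicate block, 189 with only the groups compared, and 4 to 141 with 1 library left out. The 144 in WT confinement became 333 with DESeq2, 455 with only the groups compared and 22 to 397 with 1 library left out. The 214 in WKO confinement became 486, 33 and 43 to 1043 under the same settings. The 322 between confined genotypes became 775, 90 and 58 to 701, and 186 with no low-value filter. The difference between the confinement effects stayed at 0 under every alternative run.

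Without Fn1, Thbs1 and Igfbp4, an alternative chosen after seeing the data, the mean summed normalized read count of the genes went from 14411 to 2945 in WT unconfined, from 22312 to 6022 in WKO unconfined, from 17959 to 1027 in WT confined and from 39914 to 9895 in WKO confined libraries. As a share of reads these went from 0.0982% to 0.0201%, 0.157% to 0.0425%, 0.115% to 0.00662% and 0.256% to 0.0626%. Without WKO confined replicate 5, also chosen after seeing the data, genes with all WKO confined values below the unconfined ones went from 0 (13.8% of all tested genes) to 11 (19.1%).

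Among the 22 genes given by library, 1 changed sign under some alternative between unconfined genotypes and 1 in WT confinement, against 18 in WKO confinement (11 of them without replicate 5), 0 between confined genotypes and 2 in the difference between the confinement effects. With 1 library left out, Igfbp5 between unconfined genotypes ran from -1.02 to 0.75 (the latter without WT unconfined replicate 1, limma adjusted p 0.976), and Fn1 in WT confinement from -0.62 to 0.0225 (without WT confined replicate 6, 0.992). With the replicate block Fn1 was at 0.13 (0.918). In WKO confinement the median of the 35 genes was 0.61 with edgeR, -0.15 with the replicate block and -0.53 without replicate 5. The cause of these changes was not tested. With 2 or 3 libraries a group, and values of a few reads for Thbs2, Pdgfrb, Mgp and Cxcl12 in confined WT cells, depth and number both limit the precision.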
